A study of Mus musculus with 2 samples.

Results

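Serum amyloid A, orosomucoid and short pentraxin genes encode plasma proteins that the liver secretes during the acute phase, its systemic answer to infection and injury. The 9 mouse genes Saa1, Saa2, Saa3, Saa4, Orm1, Orm2, Orm3, Apcs and Crp were chosen by symbol, each matched to 1 Ensembl gene of the GRCm38 GENCODE annotation, and are 9 of 52636 Ensembl genes listed. Liver RNA of GBP5-/- mice (KO) was set against that of wild-type mice (WT), all C57BL/6 and 9 weeks old. Both genotypes had received D-galactosamine (GalN, 800 µg per g body weight) with lipopolysaccharide (LPS, 100 ng per g) 6 h earlier. Each genotype is represented by 1 library made from the combined RNA of 4 livers, so these data hold no measure of variation between animals. No untreated liver was analysed here, and the sources used do not say how the Gbp5 allele was made.

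The acute phase is driven mainly by interleukin-6 type cytokines acting through STAT3 and by interleukin-1 and tumour necrosis factor acting through NF-kB, with C/EBP factors binding many of the promoters. LPS is a bacterial endotoxin that makes macrophages release these cytokines, and GalN depletes uridine nucleotides in hepatocytes, which limits their RNA synthesis. Saa1 and Saa2 encode apolipoproteins of high-density lipoprotein that hepatocytes make in large amounts in the acute phase. Saa3 is made in liver and also by macrophages, adipocytes and epithelia, and Saa4 is largely constitutive. Orosomucoids are lipocalin-fold carrier glycoproteins, and Apcs and Crp encode the pentraxins serum amyloid P component and C-reactive protein. In mice serum amyloid P component is the major acute-phase pentraxin and C-reactive protein responds little.

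The KO library held 15750875 reads in Ensembl genes and the WT library 19864848. With levels given as counts scaled to the library total (CPM), a gene with no read could still have a level of up to 3 reads, which is 0.190 CPM in KO and 0.151 CPM in WT. The targeted gene, Gbp5, had 873 reads in KO and 3211 in WT, or 55.4 CPM in KO and 162 CPM in WT, 2.92-fold lower in KO (95% counting interval 2.71 to 3.15), and which part of the gene the allele changes was not checked here. All 11 hepatocyte markers found were detected in both libraries, with a summed level of 111081 CPM in KO and 73712 CPM in WT. Most of this sum was the albumin gene Alb, with 69250 CPM in KO and 38384 CPM in WT. All 14 Kupffer cell and macrophage markers were detected too, at 940 CPM in KO and 1951 CPM in WT when summed. The ratio of the libraries went with GC content. Across 14055 genes at 1 CPM or more in either library, the genes compared from here on, Spearman's rho between GC content and log2 ratio was -0.46, over genes that share the same 2 libraries. All intervals are exact 95% intervals that cover counting error of reads only, and they compare these libraries, not the genotypes. They are Clopper-Pearson intervals, or conditional odds ratio intervals where the proportion of 1 gene to another is compared between libraries.

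Upstream sequence is shown for Saa1, Saa2 and Saa3, because these neighbours on chromosome 7 moved apart between the libraries. Windows run from 250 to 51 bases before the RefSeq transcript start (GRCm38.p6), 5′ to 3′ on the gene's strand. They are chr7:46743031-46743230 on the minus strand for Saa1, chr7:46751583-46751782 on the plus strand for Saa2 and chr7:46715727-46715926 on the minus strand for Saa3. Capitals mark matches on either strand to a loose form of the NF-kB consensus, to the C/EBP motif TTNNGNAA or to the STAT motif TTCNNNGAA. The loose form does not require GGG at its start.
Saa1: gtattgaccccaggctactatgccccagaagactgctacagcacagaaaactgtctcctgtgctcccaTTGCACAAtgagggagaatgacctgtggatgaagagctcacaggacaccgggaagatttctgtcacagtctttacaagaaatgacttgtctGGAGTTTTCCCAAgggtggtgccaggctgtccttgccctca
Saa2: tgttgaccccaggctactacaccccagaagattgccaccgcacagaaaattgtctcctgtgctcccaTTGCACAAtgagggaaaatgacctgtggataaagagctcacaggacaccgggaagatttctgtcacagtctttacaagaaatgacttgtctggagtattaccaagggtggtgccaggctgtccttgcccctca
Saa3: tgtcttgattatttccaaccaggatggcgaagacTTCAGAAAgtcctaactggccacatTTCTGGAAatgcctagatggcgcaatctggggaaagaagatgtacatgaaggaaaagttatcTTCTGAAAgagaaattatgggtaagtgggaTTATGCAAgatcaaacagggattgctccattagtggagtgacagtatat
The Saa1 and Saa2 windows were 93.5% identical, whereas those of Saa1 and Saa3 were 46.8% identical, within the 40.8% to 48.8% of all pairs other than Saa1 with Saa2 and Orm2 with Orm3. Saa1 held 1 match to the loose NF-kB form, from 91 to 82 bases before the start, which overlapped 1 of its 2 C/EBP matches. The match reads GGAGTTTTCC and starts with GGA on either strand, so it does not meet a consensus that requires GGG there. The contrast with Saa2 and Saa3 in NF-kB matches thus holds for the loose form only. Saa2 held 1 C/EBP match and no NF-kB match in this window. The stretch aligned to the Saa1 match differs at 2 of 20 bases, in capitals here.
Saa1: tgtctggagtTttCccaagg
Saa2: tgtctggagtAttAccaagg
Saa3 held 4 C/EBP matches and no NF-kB match. Of the other members with a sequence, Orm2 held 2 C/EBP matches, Orm3, Saa4 and Crp 1 each, and Apcs 1 STAT match. The loose NF-kB form was found in 5.33% of 32851 windows of the same kind, the C/EBP motif in 32.3% and the STAT motif in 5.76%. A match is a description of letters and does not show binding.

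**Figure D1:**
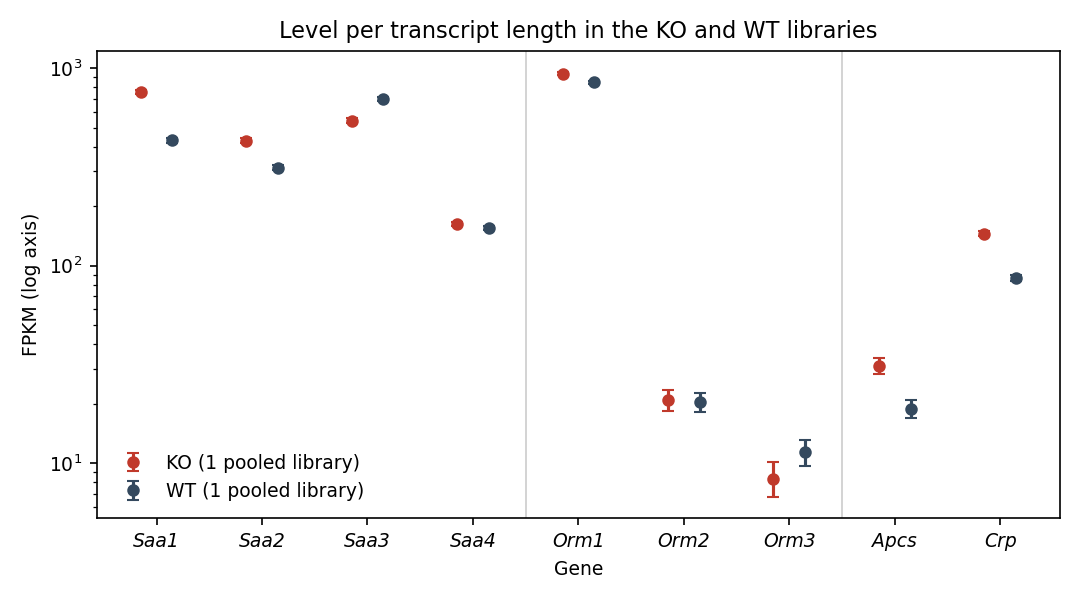
FPKM of each gene (log axis) in the KO library (red, left point) and the WT library (dark, right point); bars are 95% counting intervals and grey lines separate the serum amyloid A, orosomucoid and pentraxin genes. Saa1, Saa2, Apcs and Crp sit higher in KO, Saa3 and Orm3 lower, and the points of Saa4 and Orm2 lie close together.

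The 4 serum amyloid A genes did not move as a unit. Saa1 and Saa2 were higher in KO, Saa4 was nearly level, and Saa3 was lower. Saa1 had 7234 reads in KO and 5217 in WT, or 459 CPM in KO and 263 CPM in WT. Its level was 1.75-fold higher in KO (1.69 to 1.81), above 96.1% of compared genes. Saa2 had 4410 reads in KO and 4059 in WT, or 280.0 CPM in KO and 204 CPM in WT, and was 1.37-fold higher (1.31 to 1.43). For both genes the counting intervals of the 2 libraries' levels do not overlap. Saa3 had 4742 reads in KO and 7706 in WT, or 301 CPM in KO and 388 CPM in WT. Its level was 1.29-fold lower in KO (1.24 to 1.34), with 31.6% of compared genes below it in log2 ratio. Saa4 had 5361 reads in KO and 6475 in WT, or 340.4 CPM in KO and 326 CPM in WT, a ratio of 1.04 (1.01 to 1.08). The cluster spans 42316 bases of chromosome 7, from 46711998 to 46754313 (GRCm38), in the order Saa3 (ENSMUSG00000040026), Saa4 (ENSMUSG00000040017), Saa1 (ENSMUSG00000074115) and Saa2 (ENSMUSG00000057465), with Saa2 on the plus strand and the others on the minus strand. Saa3 thus lay on the other side of 1 from its 3 neighbours in the cluster.

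Summed over the family, serum amyloid A took 1381 CPM in KO and 1181 CPM in WT, a ratio of 1.17 (1.15 to 1.19). Without Saa3 the sum was 1080 CPM in KO and 793 CPM in WT, a ratio of 1.36 (1.33 to 1.39). The makeup of the family does not depend on how the libraries are scaled. Of the reads of the 4 genes, Saa1 held 33.3% in KO (32.6% to 33.9%) and 22.2% in WT (21.7% to 22.8%). Saa3 held 21.8% in KO (21.3% to 22.4%) and 32.9% in WT (32.3% to 33.5%). Saa3 was the leading member by reads in WT and Saa1 in KO, so their order turned over. There were 1.53 Saa1 reads per Saa3 read in KO and 0.677 in WT, a 2.25-fold higher proportion in KO (2.14 to 2.37). The proportion of Saa1 to Saa4 was 1.67-fold higher in KO (1.59 to 1.76), and that of Saa3 to Saa4 was 0.743 times as high (0.706 to 0.783).

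**Figure D2:**
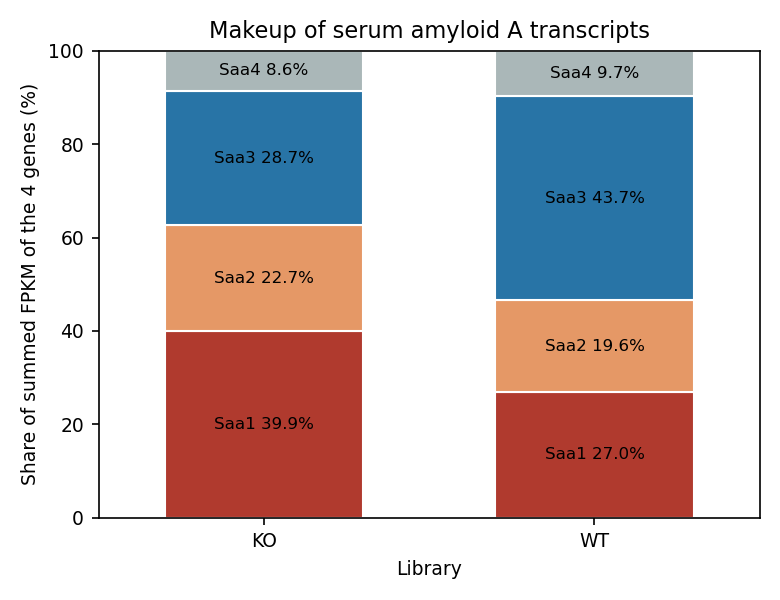
Share of each serum amyloid A gene in the summed FPKM of the 4 genes (%), with the KO library left and the WT library right. Per transcript length, Saa1 makes up 39.9% in KO and 27.0% in WT, and Saa3 28.7% in KO and 43.7% in WT.

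Saa1 and Saa2 differed less from each other than from Saa3. Saa1 held 62.1% of the reads of the pair in KO (61.2% to 63.0%) and 56.2% in WT (55.2% to 57.3%). Together they had 739 CPM in KO and 467 CPM in WT, 1.58-fold higher in KO (1.54 to 1.63). This sum does not depend on how the counted reads were split between them. Reads that fit both genes and were left out of the counts would be missing from it, which was not checked. The principal transcripts of Saa1 and Saa2 are 87.3% identical with a longest shared run of 76 bases, and no window of 100 bases of either is found in a transcript of another gene. The split of shorter or mismatched reads remains uncertain. The pseudogene Saa-ps, inside the cluster, had 44 reads in KO and 49 in WT, a ratio of 1.13 (0.736 to 1.74).

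Saa3 is also a macrophage product, and macrophage markers were lower in KO too, by more at the median than Saa3. All 14 Kupffer cell and macrophage markers had a ratio below 1, against 54.1% of compared genes, and none was at 0. Their median log2 ratio was -0.94, against -0.06 over all compared genes and -0.37 for Saa3. They ran between 3.41-fold lower (3.22 to 3.62) for the scavenger receptor gene Marco, followed by C1qc at 3.18-fold, and 1.11-fold lower (1.05 to 1.17) for the lysozyme gene Lyz2, with Vsig4, a complement receptor of Kupffer cells, at 1.26-fold (1.07 to 1.48). In bulk RNA, fewer cells of a type and less RNA per cell cannot be told apart. Neutrophil markers, from cells that carry serum amyloid A receptors, summed to 342 CPM in KO and 435 CPM in WT, with all 11 detected in both. The 10 at 1 CPM or more in either library had ratios between 0.455 (Ltf) and 0.456 (Csf3r) on one side and 1.04 (S100a8) and 1.11 (Retnlg) on the other. Of 10 adipocyte markers, 7 were detected in KO and 9 in WT, and Cfd, the adipocyte protease factor D, had 20 reads in KO and 209 in WT. The adipocyte markers summed to 2444 CPM in KO and 2792 CPM in WT, mostly from Car3, which hepatocytes also express, with ratios of 0.876 for Car3, 0.939 for the fatty acid carrier gene Fabp4 and 1.16 for the lipid droplet gene Cidec. Plin1, Lep and Acvr1c were at 0 in KO and Acvr1c in WT. The part of these cells in the Saa3 difference was not tested.

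Epithelium of the gut also makes serum amyloid A. Of 14 intestinal and gastric markers, 11 were detected in KO and 8 in WT, with summed levels of 388 CPM in KO and 78.6 CPM in WT. All 8 that were compared had a ratio above 1, against 45.9% of compared genes. Of these, 5 were 2-fold higher, against 2.10%, and none was 2-fold lower, against 8.44%. Dmbt1, a mucosal scavenger receptor gene, accounted for most of the KO sum, with 274 CPM in KO and 1.01 CPM in WT, followed by Fabp2, with 55.9 CPM in KO and 45.2 CPM in WT, and Lgals4, with 27.4 CPM in KO and 24.6 CPM in WT. Reg1 had 71 reads in KO and none in WT, while the goblet cell mucin gene Muc2 and the intestinal factor gene Cdx2 were at 0 in both. Of 11 pancreatic acinar markers 3 were detected in KO and 5 in WT, with 40.3 CPM in KO and 26.7 CPM in WT when summed, and Cpa1, Cpb1, Try4, Pnlip and Amy2a5 were at 0 in both. The chymotrypsinogen gene Ctrb1 had 297 reads in KO and none in WT, and the elastase gene Cela1 328 reads in KO and 521 in WT. Cholangiocyte markers summed to 307 CPM in KO and 172 CPM in WT, with all 9 detected in both. Among these 9, 8 had a ratio above 1, against 45.9% of compared genes. At 2-fold, 4 were higher, against 2.10%, and none was lower, against 8.44%. The mucin gene Muc1 and Cd24a were 5.57-fold and 4.37-fold higher in KO, Cftr had a ratio of 1.12 and Sox9 one of 0.709. Hepatocyte markers ran between 1.80 (Alb) or 1.79 (Apob) and 0.996 (Asgr1) or 0.990 (Apoa1). The part of these cells in the Saa1 and Saa2 differences was not tested.

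The orosomucoid genes were dominated by 1 member. Orm1 had 11461 reads in KO and 13026 in WT, or 728 CPM in KO and 656 CPM in WT. It was 1.11-fold higher in KO (1.08 to 1.14), and with a correction for GC content and length its ratio was 0.994. Orm2 had 254 reads in KO and 312 in WT, or 16.1 CPM in KO and 15.7 CPM in WT, a ratio of 1.03 (0.867 to 1.22) whose interval includes 1. Orm3 had 101 reads in KO and 174 in WT, or 6.41 CPM in KO and 8.76 CPM in WT, and was 1.37-fold lower in KO (1.06 to 1.76). Orm3 and Saa3 were the members below a ratio of 1. Orm1 held 97.0% of orosomucoid reads in KO (96.7% to 97.3%) and 96.4% in WT (96.1% to 96.7%). There were 1.52-fold more Orm1 reads per Orm3 read in KO than in WT (1.18 to 1.96). For Orm1 against Orm2 the same comparison gave 1.08 (0.911 to 1.28). The summed family had 750.2 CPM in KO and 680.2 CPM in WT, a ratio of 1.10 (1.08 to 1.13).

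The orosomucoid genes lie within 21319 bases on chromosome 4, from 63344560 to 63365878, all on the plus strand, in the order Orm1 (ENSMUSG00000039196), Orm3 (ENSMUSG00000028359) and Orm2 (ENSMUSG00000061540). Transcripts of Orm1 and Orm2 are 91.0% identical, and 47 of 676 windows of 100 bases (6.95%) are shared between them, while no window of 150 bases is. With Orm1 so much more abundant, a small share of misassigned Orm1 reads would weigh on Orm2 and Orm3, so the separate values of those minor genes are uncertain.

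Both short pentraxin genes were higher in KO, by nearly the same ratio. Crp had 3877 reads in KO and 2911 in WT, or 246 CPM in KO and 147 CPM in WT, and was 1.68-fold higher (1.6 to 1.76). Apcs had 474 reads in KO and 362 in WT, or 30.1 CPM in KO and 18.2 CPM in WT, and was 1.65-fold higher (1.44 to 1.90). The intervals of the 2 libraries' levels do not overlap for either gene. The proportion of Apcs to Crp reads was 0.122 in KO and 0.124 in WT, and its ratio between the libraries was 0.983 (0.848 to 1.14). Apcs (ENSMUSG00000026542, 172893961 to 172895041, minus strand) and Crp (ENSMUSG00000037942, 172698055 to 172833031, plus strand) both lie on chromosome 1, and their transcripts are 32.8% identical with no shared window of 100 bases. Their transcripts are the lowest in GC content of the 9, at 43.8% for Apcs and 42.1% for Crp. After the GC and length correction the ratio was 1.37 for Apcs and 1.38 for Crp.

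Here levels are set against each other between genes per length, as CPM per kilobase of the principal transcript (FPKM). The shares and proportions given above are of reads and are not scaled to length. Principal transcripts of Saa1, Saa2 and Saa3 have 609, 652 and 555 bases, against 2478, 2518 and 2606 for all their exons merged. For Saa4 both lengths are 2094 bases. The order and ranks may thus depend on the length used, and those per merged exons were not computed. In KO the order was Orm1 at 939 FPKM, Saa1 at 754, Saa3 at 542, Saa2 at 429, Saa4 at 163, Crp at 145, Apcs at 31.0, Orm2 at 20.8 and Orm3 at 8.30 FPKM. In WT it was Orm1 at 846 FPKM, Saa3 at 699, Saa1 at 431, Saa2 at 313, Saa4 at 156, Crp at 86.5, Orm2 at 20.3, Apcs at 18.8 and Orm3 at 11.3 FPKM. The places of Saa1 and Saa3, and of Apcs and Orm2, were exchanged. In WT the level of Orm2 (18.1 to 22.6 FPKM) and that of Apcs (16.9 to 20.8 FPKM) overlap within counting error, and no other neighbours in either order do. By FPKM, Orm1 ranked 81st among all genes in KO and 91st in WT, Saa1 98th in KO and 182nd in WT, and Saa3 149th in KO and 112th in WT. Apcs ranked 1890th in KO and 3002nd in WT, below Crp, which ranked 549th in KO and 876th in WT. All 9 genes together held 0.241% of reads in KO and 0.203% in WT, a ratio of 1.19 (1.17 to 1.21).

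**Figure D3:**
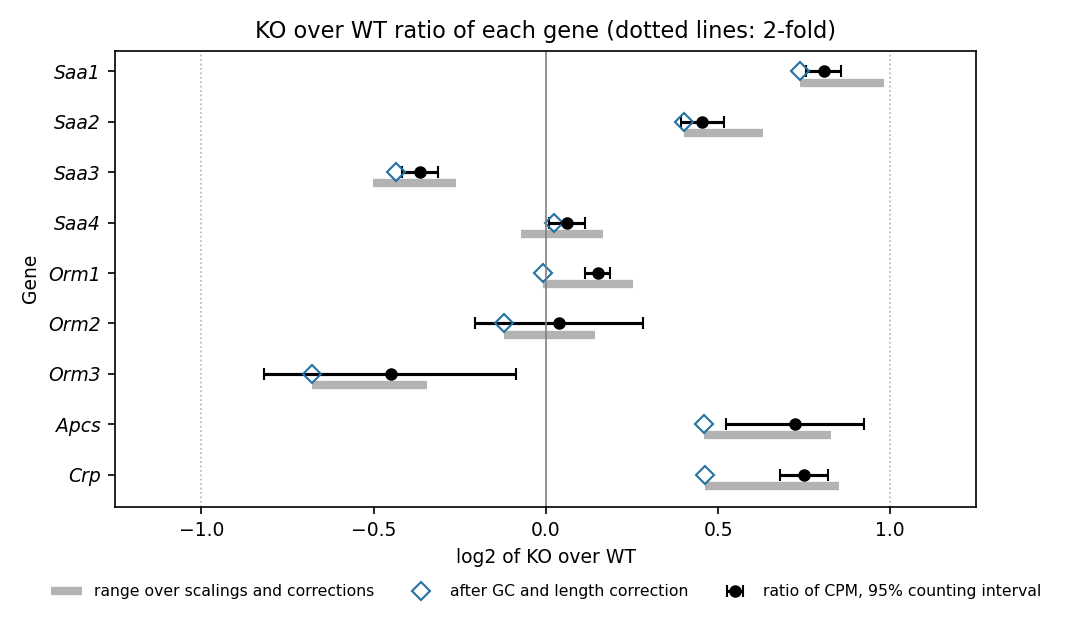
log2 of KO over WT for each gene: black points are ratios of CPM with 95% counting intervals, open diamonds the values after GC and length correction, and grey bars the range over the scalings and corrections other than scaling to Alb. No point reaches the dotted 2-fold lines, and Saa3 and Orm3 lie below 0 throughout the range shown.

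By a rule of size on CPM with 1 added, none of the 9 genes was 2-fold higher in KO, against 2.10% of the 14055 compared genes, and none was 2-fold lower, against 8.44%. All 9 passed the filter at 1 CPM. At 1.5-fold, a threshold chosen after the values were seen, Saa1, Apcs and Crp were higher, against 8.58% of compared genes, and none was lower, against 21.0%. With a correction for GC content and length none reached 2-fold, against 2.70% of compared genes higher and 3.03% lower. At 1.5-fold with the correction Saa1 was higher, against 10.3%, and Orm3 lower, against 11.8%. A ratio above 1 was found for 7 of the 9, against 45.9% of compared genes. Their median log2 ratio was 0.15, against -0.06 over all compared genes and -0.02 over the 1639 genes at 100 CPM or more in either library. With the GC and length correction 5 of the 9 were above 1, against 50.4% of compared genes, and the median was 0.02. Dividing by Alb reads in place of the total put all 9 below a ratio of 1. With that scaling the median log2 ratio over all compared genes was -0.92. Alb, the albumin gene, was 1.80-fold higher in KO, with 69250 CPM in KO and 38384 CPM in WT. Per Alb read, Saa1 was at 0.969 times its WT level, Crp at 0.931, Orm1 at 0.615, Saa3 at 0.430 and Orm3 at 0.406, the last 2 past 2-fold lower. Saa3 and Orm3 were below a ratio of 1 under every scaling and correction tried, while Saa1 and Crp were higher per total reads and slightly lower per Alb read.

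**Figure D4:**
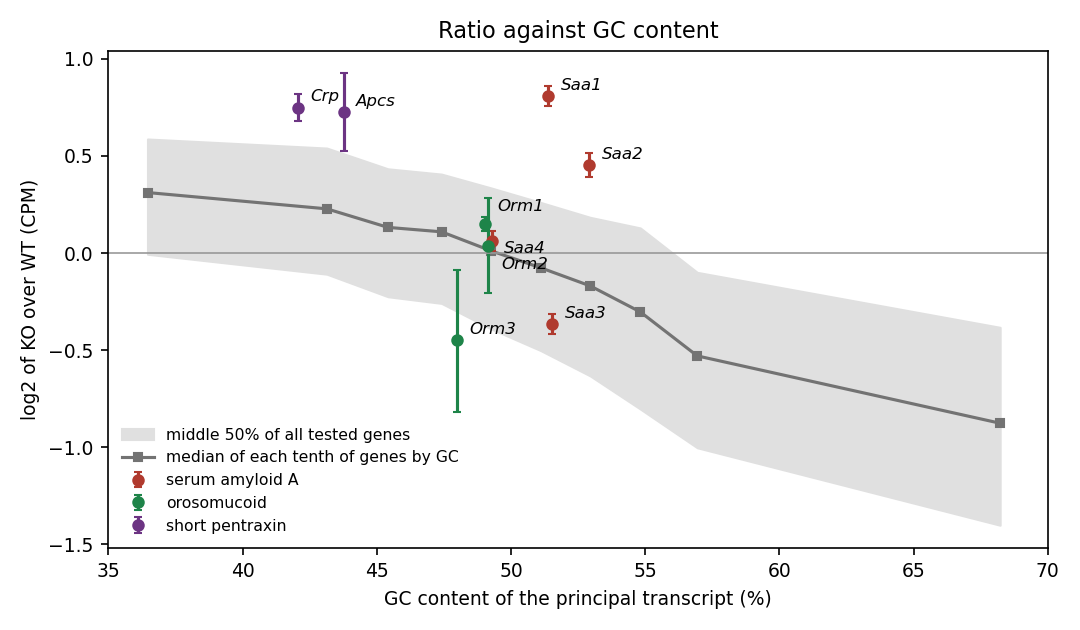
log2 of KO over WT (CPM) of each gene against the GC content of its principal transcript (%), with counting intervals; the grey line and band are the median and the middle 50% of all compared genes in 10 bins of GC content. Saa1, Saa2, Apcs and Crp lie above the band, Orm3 below it and the other members within it.

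The members' GC content lay between 42.1% for Crp and 52.9% for Saa2, against a median of 50.2% over compared genes. Apcs and Crp fall in the second-lowest of the 10 GC bins (41.9% to 44.4%), near the low end. In that bin the median log2 ratio was 0.23, and in the bin that holds Saa1 and Saa3 it was -0.08. Saa1 and Saa3 thus share a GC bin and differ in direction. Corrected log2 ratios were 0.74 for Saa1, 0.40 for Saa2, -0.44 for Saa3, 0.02 for Saa4 and -0.68 for Orm3.

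Most other plasma proteins of the acute phase differed by less than 1.5-fold. Of 23 compared genes of other positive acute-phase proteins, 17 had a ratio above 1, against 45.9% of compared genes, with a median log2 ratio of 0.28. In this list 1 was 2-fold higher, against 2.10% of compared genes, and 1 was 2-fold lower, against 8.44%. Hamp, which encodes the iron hormone hepcidin, had 753 CPM in KO and 353 CPM in WT, 2.13-fold higher (2.07 to 2.20). Cd14, an LPS co-receptor of macrophages and hepatocytes, had 163 CPM in KO and 332 CPM in WT, 2.04-fold lower (1.95 to 2.13), and Il1rn, the interleukin-1 receptor antagonist, was 1.85-fold lower (1.76 to 1.95). Mt2, a metallothionein gene, rests on 23 reads in KO and 14 in WT. Hp, the haptoglobin gene, had a ratio of 0.975 (0.963 to 0.987), and Lcn2, a siderophore-binding lipocalin gene, one of 1.21 (1.16 to 1.26). Negative acute-phase proteins, whose synthesis normally drops in inflammation, lay on the same side as Saa1 and Crp. Of 11 compared, 9 had a ratio above 1, against 45.9%, with a median of 0.33. None was at 2-fold, against 2.10% of compared genes higher and 8.44% lower. Alb was highest and Itih2, an inhibitor heavy chain gene, next at 1.57-fold higher (1.54 to 1.61), while F12, coagulation factor XII, was 1.30-fold lower (1.27 to 1.32) and Apoa1, the main apolipoprotein of high-density lipoprotein, had a ratio of 0.990.

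The cytokines that induce these genes were lower in KO. All 10 compared ligands had a ratio below 1, against 54.1% of compared genes, with a median log2 ratio of -1.05. Of them 3 were 2-fold lower, against 8.44% of compared genes. Il6, the main inducer of hepatocyte acute-phase genes, had 106 reads in KO and 322 in WT, 2.41-fold lower (1.93 to 3.03). Il1b, whose product the inflammasome matures, had 89.4 CPM in KO and 146 CPM in WT and was lower by 1.64-fold (1.54 to 1.75). For Tnf the levels were 21.8 CPM in KO and 28.4 CPM in WT, a ratio of 0.766 (0.668 to 0.877). Il1a was the least lower, by 1.27-fold (1.13 to 1.42), and Ifng and Il11 were lowest, on 3 and 10 reads in KO against 26 and 60 in WT. Among 11 compared receptors, 5 had a ratio above 1, near the 45.9% of compared genes. Only 1 was 2-fold lower, near the 8.44% of compared genes. That was Il6ra, the ligand-binding chain for interleukin-6, with 10.5 CPM in KO and 38.6 CPM in WT, 3.69-fold lower (3.11 to 4.39). Il6st, the shared signalling chain, had a ratio of 1.18 (1.15 to 1.22), and Il1rap, the interleukin-1 co-receptor gene, one of 1.15 (1.08 to 1.23). Tnfrsf1b, a tumour necrosis factor receptor gene, was 1.75-fold lower (1.65 to 1.85).

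Of 21 compared transcription factor and feedback genes, 8 had a ratio above 1, against 45.9% of compared genes, which is near that share. In the list 7 were 2-fold lower, against 8.44% of compared genes, or 3 after the GC and length correction, against 3.03%. The median log2 ratio was -0.21, or -0.05 after the correction. Cebpb, a C/EBP factor of the acute phase, had 255 CPM in KO and 848 CPM in WT, 3.32-fold lower (3.21 to 3.44). Cebpd, its relative, was 2.72-fold lower (2.57 to 2.89), and both stayed past 2-fold with the correction, at log2 ratios of -1.29 and -1.33. Socs3, the feedback inhibitor that STAT3 induces, was 2.93-fold lower (2.84 to 3.04), with a corrected log2 ratio of -0.56. Stat3 was 1.16-fold lower (1.10 to 1.22), and its log2 ratio was -0.21, or 0.31 with the correction. Maz, a zinc finger gene, and Cebpe were lowest before the correction, 3.91-fold and 3.57-fold lower. With the correction their log2 ratios were -0.97 for Maz, no longer past 2-fold, and -1.40 for Cebpe. Xbp1, a secretory pathway factor, and Creb3l3, a liver factor that acts on Crp and Apcs, had ratios of 1.20 and 1.16. In these libraries, Saa1, Saa2, Apcs and Crp were higher per total reads, though not per Alb read, beside lower Il6, Il6ra, Cebpb, Cebpd and Socs3. In the lists of the lower genes, 0 of 10 ligands, 5 of 11 receptors and 8 of 21 transcription factor and feedback genes had a ratio above 1. A link between these differences was not tested.

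**Figure D5:**
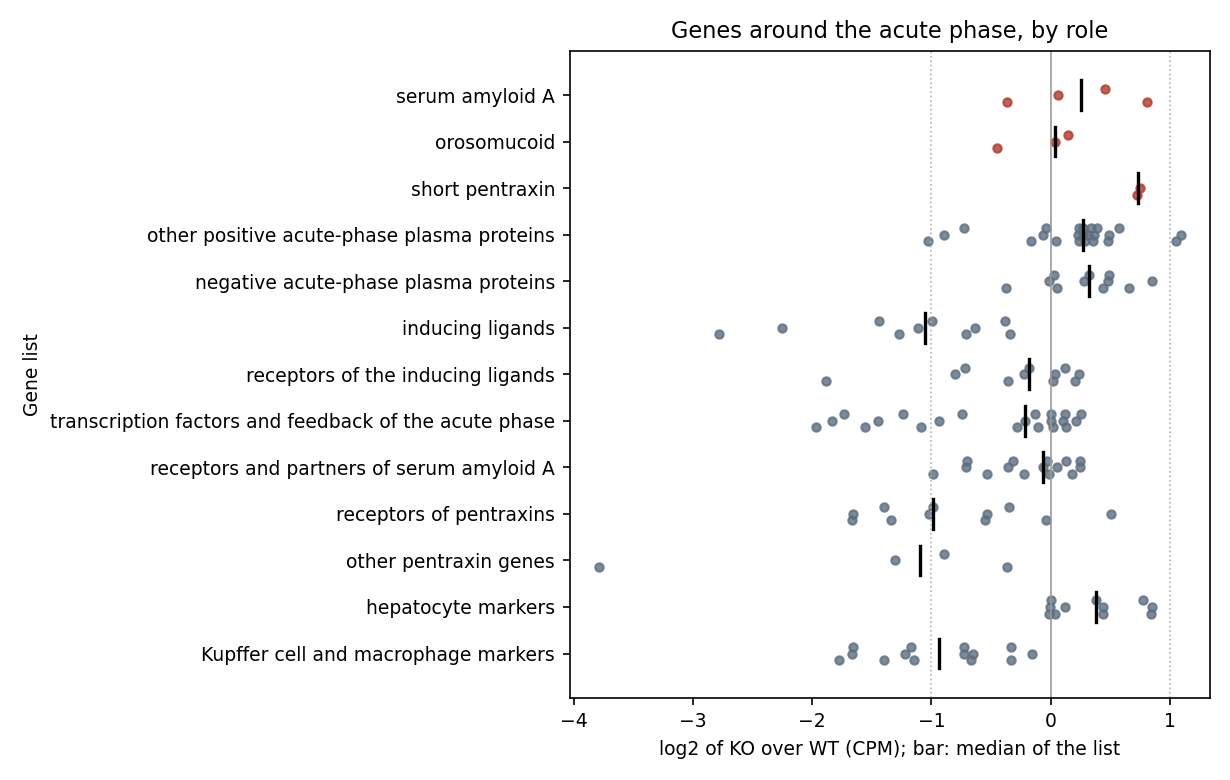
log2 of KO over WT (CPM) of each compared gene, grouped by role; black bars are list medians, dotted lines 2-fold, and red points the 9 members. Ligands, pentraxin receptors and macrophage markers have medians near -1, plasma protein lists medians above 0.

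Among the other pentraxin genes, Ptx3 stood lowest. Ptx3, the long pentraxin that macrophages and endothelium make on the spot, had 11 reads in KO and 192 in WT, or 0.698 CPM in KO and 9.67 CPM in WT. It was 13.8-fold lower in KO (7.56 to 28.2), against 1.65-fold and 1.68-fold higher levels of the short pentraxin genes. Its corrected log2 ratio was -3.76. All 4 compared genes of other pentraxins had a ratio below 1, against 54.1% of compared genes, and Ptx3 was the 1 that was 2-fold lower. The GC and length correction put the other 3 nearer to level, at ratios of 0.958 for Nptxr, 0.852 for Nptx1 and 1.0005 for Svep1, and the list's median log2 ratio was -1.10 without it and -0.15 with it. Nptxr, a neuronal pentraxin receptor, had 9 reads in KO and 28 in WT, Nptx1 had 26 in KO and 61 in WT, and Svep1, a large extracellular protein with a pentraxin domain, had a ratio of 0.777 whose interval includes 1 (0.567 to 1.06). Mptx1, Mptx2 and Ptx4 had no reads in either library. Genes of proteins that bind pentraxins were mostly lower. Of 11 compared, 10 had a ratio below 1, against 54.1% of compared genes, and 4 were 2-fold lower, against 8.44%, with a median log2 ratio of -0.99. C1qc and C1qa, which encode complement C1q chains and are also macrophage markers, were 3.18-fold and 3.15-fold lower, and Fcgr2b, an inhibitory Fc receptor gene, had a ratio of 0.977. The part of the macrophage markers in the Ptx3 and C1q differences was not tested.

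Receptors and partners of serum amyloid A were closer to level. Of 15 compared, 5 had a ratio above 1, against 45.9% of compared genes, with a median log2 ratio of -0.06. None passed 2-fold, against 2.10% of compared genes higher and 8.44% lower. Fpr2, a formyl peptide receptor of myeloid cells that binds serum amyloid A, was 1.63-fold lower (1.48 to 1.80), and Tlr2 had a ratio of 0.979. Apoe, an apolipoprotein gene, was 1.98-fold lower (1.97 to 1.98). Scarb1, the hepatic high-density lipoprotein receptor, had a ratio of 1.13, and Lcat and Apoa2, which act on the same lipoprotein, ratios of 1.19 each. Of 8 compared lipocalin genes outside the orosomucoids, 3 had a ratio above 1, near the 45.9% of compared genes. Ptgds, a prostaglandin synthase, had 40 reads in KO and 127 in WT, Apod, an apolipoprotein, 9 in KO and 23 in WT, and Apom, another lipoprotein component, a ratio of 1.34.

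Among protein-coding genes outside the members, those nearest to Saa1 in log2 CPM over the 2 libraries were Egfr at 0.05, Gpi1 at 0.12 and Cyp2c23 at 0.16. Glul, Hc and Ly6e lay nearest to Orm1, and Ddx3x, Elovl2 and Slc38a2 nearest to Crp. Likeness over 2 libraries says nothing of shared function or control.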

How the data were processed

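The deposited files hold whole-number read counts per gene, although their names say FPKM. TopHat2, HTSeq 0.6.1 and GRCm38 are named, per the submitters' processing notes. Their annotation release, read length and strand setting are unknown here. Entries with no gene (209 of 52845, with 0.496% of reads in KO and 0.652% in WT) were left out, and totals over Ensembl genes gave CPM.

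FPKM used the APPRIS principal transcript of GENCODE M21. With 1 library per genotype no test was possible. Genes at 1 CPM or more in either library were counted as different at 2-fold on CPM with 1 added. Intervals are exact Clopper-Pearson, given the summed reads. Those for the proportion of 1 gene to another between libraries are exact conditional odds ratio intervals. The GC and length correction subtracted the median log2 ratio within 10 GC by 4 length classes, taken over genes with at least 100 reads, and it also removes real differences that go with either. Promoter windows are RefSeq's, matched for 8 of 9 members. Alternatives were other scalings, pseudocounts, filters and FPKM, and steps were checked on simulated counts. Named genes were the members, the 2 highest and 2 lowest of each list and set representatives; genes named for a count of 0 were added after values were seen. The result of 1 gene this rule names is not reported here. The members and lists were chosen with earlier results of these data known. Tf and Saf were not matched by symbol. Tools were Python 3.11.15, numpy 2.4.6, pandas 2.3.3, scipy 1.17.1, Biopython 1.88 and edgeR 4.0.16 in R 4.3.3 (TMM factors).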

Additional observations from a re-analysis of the deposited data

How the results depend on the processing

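The counts of members at 2-fold in either direction stayed at 0 under TMM, median ratio and equal FPKM scaling, totals without mitochondrial or the 50 most abundant genes, the GC and length correction, pseudocounts of 0.1 and 0.5, no filter, a filter at 5 CPM and FPKM. The summed serum amyloid A ratio of 1.17 was 1.14 with an equal FPKM sum, 1.26 without the 50 most abundant genes and 1.12 with the GC and length correction. The orosomucoid ratio of 1.10 was 1.07 and 1.18 with those scalings and turned to 0.987 with the correction. The short pentraxin ratio of 1.68 was 1.80 without the 50 most abundant genes and 1.38 with the correction. Under the other scalings these sums stayed within their counting intervals. Orm1 turned to a log2 ratio of -0.0089 with the correction. With the correction from longest transcripts and exon unions, chosen after seeing the data, Saa4 turned to -0.073. With Alb reads as the total, also chosen then, Saa1 turned to -0.045, Saa2 to -0.40, Saa4 to -0.79, Orm1 to -0.70, Apcs to -0.13 and Crp to -0.10, and Orm2 was at -0.81, Saa3 at -1.22 and Orm3 at -1.30. That scaling shifted the log2 ratio of every gene by -0.85 and put the median over all compared genes at -0.92. Alb itself was 1.80-fold higher in KO, and the cause was not tested. No paired analysis was possible because each genotype has 1 library, and none could be left out. The WT library holds 1.26 times the reads of KO, and depth limits Orm2, Orm3 and Apcs most.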

Other observations

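The genes that flank the orosomucoid cluster were lower in KO, by more than the orosomucoids inside it before the GC and length correction, while with it Akna was close to Orm3. Col27a1, a fibrillar collagen gene 9569 bases to the lower-coordinate side, had 475 reads in KO and 3084 in WT and was 5.15-fold lower in KO (4.67 to 5.68). Akna, an AT-hook protein gene 1247 bases to the other side, had 144 reads in KO and 532 in WT and was 2.93-fold lower (2.43 to 3.55). Both transcripts are rich in GC, at 59.4% and 57.7%, and the corrected log2 ratios were -1.12 for Col27a1 and -0.64 for Akna. The 3 orosomucoid genes between them had ratios of 1.11, 1.03 and 0.732, with corrected log2 ratios of -0.01, -0.12 and -0.68. Gm11212, an annotated gene inside the cluster, had 25 reads in KO and 9 in WT.

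Around the serum amyloid A cluster, which spans 42316 bases, Saal1 on the side of Saa3 had 122 reads in KO and 79 in WT and was 1.95-fold higher in KO (1.46 to 2.62), whereas Saa3, 1318 bases away, was lower. Hps5, a lysosome-related organelle gene beside Saa2, had a ratio of 0.95 (0.803 to 1.12). Dusp23, the nearest coding gene on the lower-coordinate side of Crp and Apcs, had 134 reads in KO and 167 in WT, a ratio of 1.01 (0.80 to 1.28), and Olfr16 on the other side had none in either library.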
